A study of Mus musculus with 18 samples.

Results

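Plau, Plat, Plaur, Serpine2 and Serpinb2 encode proteins of the plasminogen activator system, and their transcripts were followed in mouse aortic smooth muscle cells given siRNA against Itgav, the gene of integrin αV, or scramble siRNA. The 5 genes were chosen by name from 57180 genes in the count matrix, and all 5 passed the filter on low counts. Smooth muscle cells were isolated from the thoracic aorta of C57BL/6 mice, transfected with siRNA and then stimulated with TGF-β, with PDGF-BB or with neither, and their RNA was sequenced in bulk. The 6 groups of 3 libraries each were Itgav siRNA with TGF-β, scramble siRNA with TGF-β, Itgav siRNA with PDGF-BB, scramble siRNA with PDGF-BB, Itgav siRNA alone and scramble siRNA alone. All cells in the 6 groups were transfected, so the scramble groups also carry an siRNA. The labels name thoracic aortic tissue as the source and smooth muscle cell as the cell type, and the protocol describes isolated cells, which is how the libraries are read here. The labels state no dose, time, passage, siRNA sequence or number of mice, and nothing in the labels says that the 3 libraries of a group came from separate cultures, so p-values measure only the spread between these libraries.

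Plasminogen activators are serine proteases that cut plasminogen into plasmin, the protease that dissolves fibrin and breaks down extracellular matrix. Urokinase, encoded by Plau, acts largely at the cell surface when bound to its receptor, encoded by Plaur, while tissue-type plasminogen activator, encoded by Plat, works best on fibrin. Serpins trap these proteases in inactive complexes: Serpine2 encodes protease nexin-1, which inhibits thrombin, urokinase and plasmin, and Serpinb2 encodes plasminogen activator inhibitor 2, which inhibits urokinase and is kept largely inside the cell. In arteries the system is known for its part in smooth muscle cell migration and in the breakdown of the wall in aneurysm. TGF-β promotes the contractile state of smooth muscle cells and PDGF-BB promotes migration and division, and integrin αV is a receptor subunit for vitronectin and for latent TGF-β.

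The genes lie on different chromosomes except for both serpins, which lie far apart on chromosome 1 (GENCODE release 21 annotation, build GRCm38). Plau (ENSMUSG00000021822) is at chr14:20836660-20843385 on the plus strand, and the transcript that took 100% of its counts has 11 exons. Plat (ENSMUSG00000031538) is at chr8:22757727-22782844, plus strand, with 14 exons in its leading transcript. Plaur (ENSMUSG00000046223) is at chr7:24462484-24475968, plus strand, with 7 exons. Serpine2 (ENSMUSG00000026249) is at chr1:79794197-79861180 on the minus strand, with 9 exons, and Serpinb2 (ENSMUSG00000062345) is at chr1:107511423-107535478, plus strand, with 8 exons.

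RefSeq's table of promoters (GRCm38.p6) matched Plaur, Serpinb2 and Serpine2, 3 of the 5 genes. All 3 of these genes rose with PDGF-BB under either siRNA. The 250 bases before the start are shown for Plaur, whose protein is the urokinase receptor, and for Serpinb2, the gene with the largest change. The Serpine2 window holds bases of an annotated transcript and is described without its letters. Capitals mark matches to the AP-1 motif TGANTCA and to the TATA motif TATAAA, and each sequence reads 5′ to 3′ toward the start.
Plaur promoter, chr7:24462233-24462482, plus strand: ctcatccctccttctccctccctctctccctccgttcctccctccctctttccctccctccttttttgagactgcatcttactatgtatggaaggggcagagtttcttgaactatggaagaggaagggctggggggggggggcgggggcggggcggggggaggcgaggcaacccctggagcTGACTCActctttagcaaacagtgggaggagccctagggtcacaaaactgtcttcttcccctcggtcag
Serpinb2 promoter, chr1:107511173-107511422, plus strand: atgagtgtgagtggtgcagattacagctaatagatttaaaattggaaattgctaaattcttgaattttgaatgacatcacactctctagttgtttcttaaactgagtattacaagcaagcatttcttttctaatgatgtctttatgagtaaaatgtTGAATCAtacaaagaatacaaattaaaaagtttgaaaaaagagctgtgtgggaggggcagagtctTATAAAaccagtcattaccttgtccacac
In the Plaur window TGACTCA lies 69 to 63 bases before the start, and the window is 59.6% G and C with 3 matches to the GC box GGGCGG, of which the one nearest the start overlaps its neighbour by 1 base. In the Serpinb2 window TGAATCA lies 94 to 88 bases and TATAAA 29 to 24 bases before the start, and 32.4% of its bases are G and C. RefSeq holds another Serpinb2 entry, chr1:107511260-107511509, with a start further downstream. There the same TGAATCA lies 181 to 175 bases and the same TATAAA 116 to 111 bases before the start. Both strands were searched. Of 32851 promoter windows of the same length, 6.75% held TGANTCA, 12.4% held TATAAA and 32.7% held GGGCGG, so the AP-1 letters are uncommon in such windows without being rare. The Serpine2 window, of a gene that also rose with PDGF-BB, had 6 matches to GGGCGG and none to TGANTCA or TATAAA, and it was 78.8% G and C. A match is a string of letters and says nothing of what binds there.

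Library totals ran between 17705072 and 21592916 estimated counts, and levels below are in CPM, the depth-scaled count. Itgav itself was at 25.3 to 29.7 CPM with siRNA against 472 to 553 CPM with scramble under TGF-β, 19.1 to 25.5 against 307 to 336 CPM under PDGF-BB, and 14.1 to 16.4 against 300 to 326 CPM without stimulus, so on the log2 scale it fell by 4.28 under TGF-β, fell by 3.81 under PDGF-BB and fell by 4.39 without stimulus. The cells carried all 8 listed smooth muscle markers, whose summed level was 3240 to 3400 CPM with siRNA against 6620 to 7170 CPM with scramble under TGF-β, 375 to 384 against 957 to 985 CPM under PDGF-BB, and 991 to 1110 against 2080 to 2130 CPM without stimulus. All 12 listed interferon response genes rose with Itgav siRNA in each condition, and their sum was 739 to 804 CPM with siRNA against 96.5 to 122 CPM with scramble under TGF-β, 4000 to 6000 against 164 to 193 CPM under PDGF-BB, and 6520 to 7480 against 163 to 378 CPM without stimulus. The sum over 6 markers of dividing cells was 236 to 253 CPM with siRNA against 230 to 260 CPM with scramble under TGF-β, 356 to 376 against 464 to 488 CPM under PDGF-BB, and 394 to 465 against 593 to 631 CPM without stimulus. Mesothelial markers (6 of 7 tested, Krt8 not) summed to 28.6 to 33.4 against 63.7 to 66.2 CPM, 90.8 to 99.1 against 198 to 222 CPM, and 95.0 to 96.9 against 156 to 167 CPM under TGF-β, under PDGF-BB and without stimulus, again siRNA against scramble. Not all of these 6 fell: the siRNA raised 2 and lowered 3 under TGF-β, raised 1 and lowered 4 under PDGF-BB, and raised 1 and lowered 3 without stimulus. Adventitial fibroblast markers (7 of 7) summed to 32.2 to 36.3 CPM with siRNA against 37.6 to 38.6 CPM with scramble under TGF-β, 120 to 128 against 148 to 156 CPM under PDGF-BB, and 89.2 to 89.8 against 95.6 to 98.3 CPM without stimulus. That sum is led by Cd34, at 44.7 ± 1.58 CPM with siRNA against 77.3 ± 1.8 CPM with scramble without stimulus, and hides markers that moved the other way. Itgav siRNA raised 3 and lowered 1 of the 7 under TGF-β (median log2 fold change 0.612), raised 4 and lowered 1 under PDGF-BB (0.884), and raised 5 and lowered 1 without stimulus (1.017). Without stimulus Pdgfra was at 25.0 ± 1.08 CPM with siRNA against 12.3 ± 0.929 CPM with scramble, and Scara5 at 10.7 ± 0.781 against 2.87 ± 0.184 CPM (SD, n = 3). Over all libraries, endothelial markers (8 of 8) summed to 56.5 to 108 CPM and macrophage markers (5 of 7, without Adgre1 and Itgam) to 9.26 to 27.0 CPM. The part of these movements in the results on the 5 genes was not tested, and in bulk RNA fewer cells of a type and less RNA per cell cannot be told apart.

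The urokinase gene Plau was the member that Itgav siRNA lowered most, and TGF-β lowered it as well. Under TGF-β, Plau was at 7.49, 6.24 and 5.67 CPM with Itgav siRNA, against 21.0, 24.5 and 21.4 CPM with scramble. Under PDGF-BB it was at 21.8, 19.6 and 23.3 CPM with Itgav siRNA, against 102, 101 and 98.0 CPM with scramble. Without stimulus it was at 20.4, 20.7 and 20.7 CPM with Itgav siRNA, against 89.4, 89.0 and 84.5 CPM with scramble. In each of the 3 conditions every siRNA library lay below every scramble library. The siRNA and scramble libraries also did not overlap for 55.6% of all tested genes under TGF-β, 61.9% under PDGF-BB and 61.4% without stimulus. By edgeR's quasi-likelihood test with Benjamini-Hochberg adjustment over 15832 genes, Plau fell with Itgav siRNA 3.45-fold under TGF-β (log2 fold change -1.79 ± 0.0925 SE, adjusted p = 5.1e-13), 4.67-fold under PDGF-BB (-2.22 ± 0.0685, adjusted p = 7.1e-17) and 4.25-fold without stimulus (-2.09 ± 0.0693, adjusted p = 3.8e-16).

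TGF-β lowered Plau 3.19-fold in Itgav siRNA cells (-1.67 ± 0.0926, adjusted p = 5.8e-13) and 3.93-fold in scramble cells (-1.97 ± 0.0693, adjusted p = 3.9e-16). With both, Plau was at its lowest, and its mean was 0.0738 times that of unstimulated scramble cells. PDGF-BB moved this gene little. In scramble cells it rose 1.15-fold (0.20 ± 0.0609, adjusted p = 0.015), a call that was lost without the third unstimulated scramble library (0.17, adjusted p = 0.073, against 0.0058 to 0.073 over all 13 alternatives). In Itgav siRNA cells the PDGF-BB and unstimulated libraries overlapped (0.06 ± 0.0761, adjusted p = 0.56). The order of the 6 group means was therefore TGF-β with Itgav siRNA, then a cluster of Itgav siRNA alone, PDGF-BB with Itgav siRNA and TGF-β with scramble, then scramble alone and PDGF-BB with scramble. Neighbours within that cluster overlapped, and the means spanned 15.5-fold.

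Plat, the tissue-type activator gene, moved the other way with Itgav siRNA and the same way with TGF-β. Under TGF-β, Plat was at 23.5, 25.6 and 26.7 CPM with Itgav siRNA, against 11.0, 10.9 and 10.2 CPM with scramble. Under PDGF-BB it was at 205, 211 and 206 CPM with Itgav siRNA, against 125, 136 and 132 CPM with scramble. Without stimulus it was at 117, 116 and 108 CPM with Itgav siRNA, against 56.4, 57.3 and 54.5 CPM with scramble. Every siRNA library was above every scramble library of its condition, a separation shared with 55.6%, 61.9% and 61.4% of all genes under TGF-β, PDGF-BB and no stimulus. Plat rose with Itgav siRNA 2.36-fold under TGF-β (1.24 ± 0.0673, adjusted p = 1.1e-12), 1.58-fold under PDGF-BB (0.66 ± 0.046, adjusted p = 5.3e-11) and 2.03-fold without stimulus (1.02 ± 0.0489, adjusted p = 1.3e-13).

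Both stimuli moved Plat, in opposite directions. TGF-β lowered it 4.49-fold in Itgav siRNA cells (-2.17 ± 0.0535, adjusted p = 3.8e-19) and 5.23-fold in scramble cells (-2.39 ± 0.0621, adjusted p = 2.5e-18). PDGF-BB raised it 1.82-fold in Itgav siRNA cells (0.87 ± 0.0464, adjusted p = 1.2e-12) and 2.34-fold in scramble cells (1.23 ± 0.0487, adjusted p = 1.4e-14). No 2 neighbouring groups overlapped in the order TGF-β with scramble, TGF-β with Itgav siRNA, scramble, Itgav siRNA, PDGF-BB with scramble and PDGF-BB with Itgav siRNA. The means spanned 19.4-fold. Separation of neighbours in such an order was not counted over all genes, for Plat or for the other members.

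**Figure D1:**
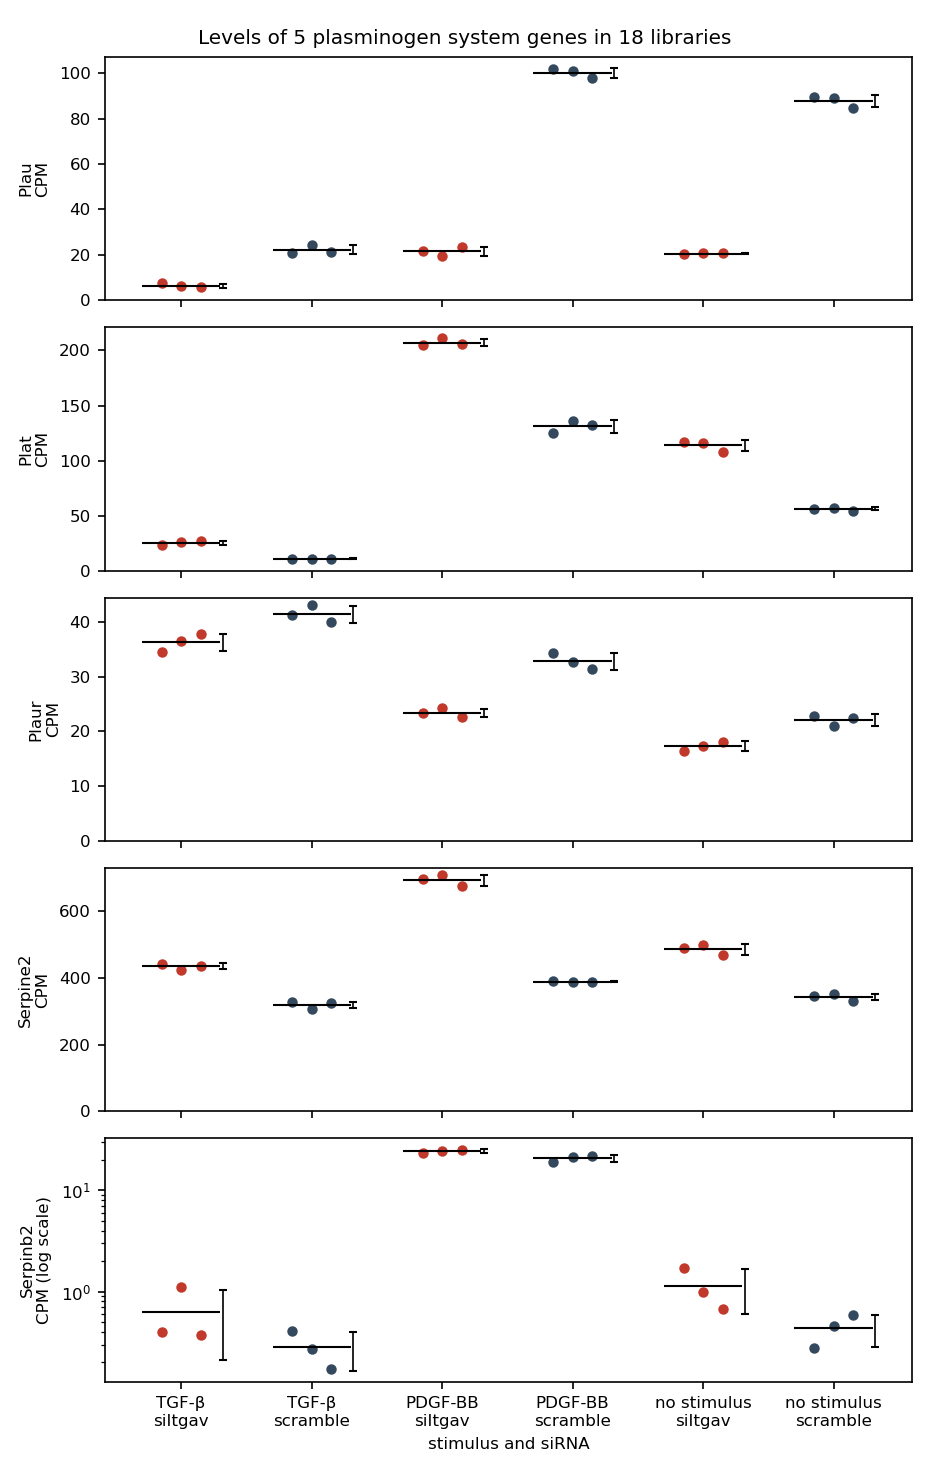
Levels in CPM of Plau, Plat, Plaur, Serpine2 and Serpinb2 (log axis for Serpinb2) in 18 libraries of 6 groups, with points for libraries (red for Itgav siRNA, dark for scramble), a line for the mean and a bar for its SD (n = 3). Plau is lower and Plat higher with Itgav siRNA in each pair, and Serpinb2 stands at 18.9 to 25.2 CPM in the PDGF-BB libraries and at 0.174 to 1.72 CPM elsewhere.

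Because Plau and Plat moved oppositely with the siRNA, the balance between both activator messages shifted. Set per kilobase of the leading transcript (2.34 kb for Plau, 2.52 kb for Plat), Plat ranged from 9.31 to 10.6 CPM per kb and Plau averaged 2.76 ± 0.398 in TGF-β cells with Itgav siRNA, against 4.24 ± 0.16 for Plat and 9.51 ± 0.813 for Plau in TGF-β cells with scramble (SD, n = 3). With PDGF-BB, Plat reached 82.1 ± 1.3 and Plau 9.2 ± 0.789 CPM per kb with Itgav siRNA, against 52.0 ± 2.18 and 42.9 ± 0.954 with scramble. Without stimulus, Plat reached 45.0 ± 1.95 and Plau 8.79 ± 0.0723 CPM per kb with Itgav siRNA, against 22.2 ± 0.555 and 37.4 ± 1.17 with scramble. Unstimulated and TGF-β scramble cells thus held more urokinase message than tissue-type activator message per length, and all 3 Itgav siRNA groups held more of the tissue-type.

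As a share of the sum of both per kb, Plat made up 74.4%, 79.2% and 81.4% with Itgav siRNA against 32.6%, 29.3% and 30.8% with scramble under TGF-β. The share was 89.7%, 90.9% and 89.2% against 53.2%, 55.6% and 55.6% under PDGF-BB, and 84.2%, 83.9% and 82.9% against 36.9%, 37.4% and 37.5% without stimulus. The lowest siRNA library of any condition was above the highest scramble library of any condition. No test was run on the share, which follows from the tests on both genes. The sum itself differed far less between siRNAs than between stimuli: it averaged 12.8 ± 0.255 against 13.8 ± 0.883 CPM per kb under TGF-β, 91.3 ± 0.83 against 94.9 ± 1.9 under PDGF-BB, and 53.8 ± 1.9 against 59.6 ± 1.69 without stimulus.

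**Figure D2:**
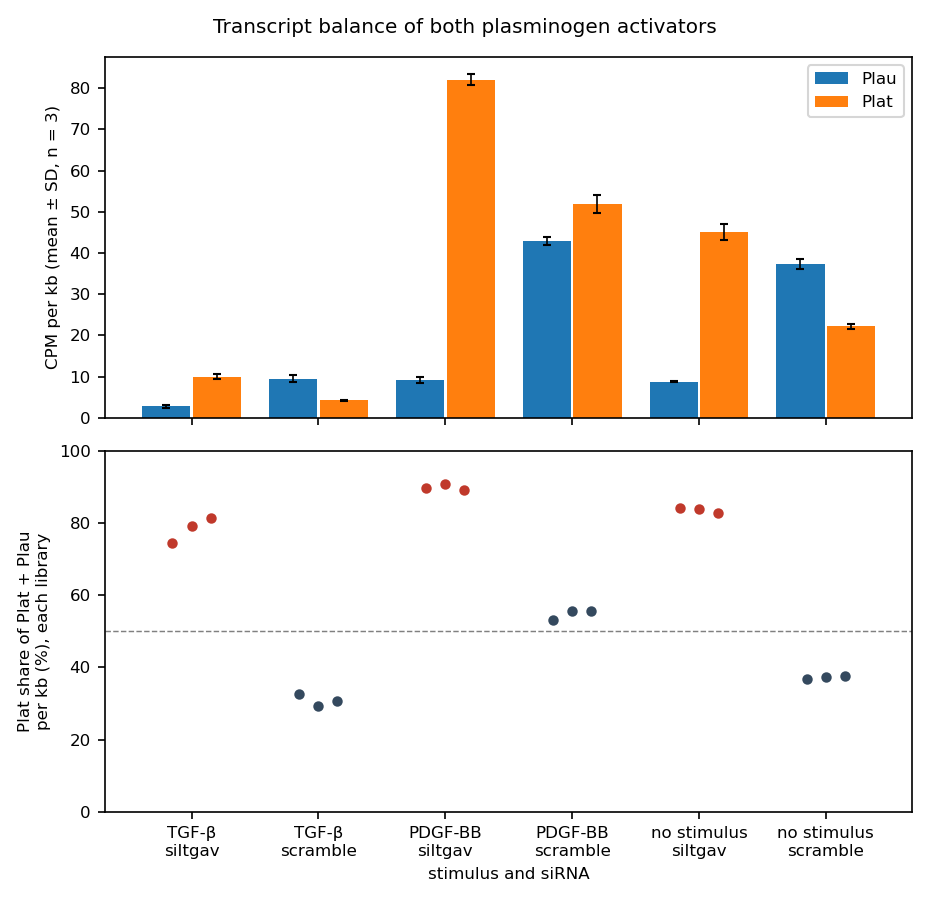
Top, Plau and Plat in CPM per kb of leading transcript, as means with SD (n = 3) in the 6 groups; bottom, the share of Plat in the sum of both, in percent, in each library (red for Itgav siRNA, dark for scramble), with a dashed line at equal levels. The Itgav siRNA libraries hold shares of 74.4% to 90.9% and the scramble libraries 29.3% to 55.6%.

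Plaur, the gene of the urokinase receptor, rose with either stimulus and was modestly lower with Itgav siRNA. Under TGF-β, Plaur was at 34.6, 36.6 and 37.8 CPM with Itgav siRNA, against 41.2, 43.1 and 40.0 CPM with scramble. Under PDGF-BB it was at 23.3, 24.2 and 22.7 CPM with Itgav siRNA, against 34.4, 32.6 and 31.4 CPM with scramble. Without stimulus it was at 16.4, 17.3 and 18.1 CPM with Itgav siRNA, against 22.9, 21.0 and 22.5 CPM with scramble. No siRNA library reached the lowest scramble library of its condition, against 55.6%, 61.9% and 61.4% of all genes without overlap under TGF-β, PDGF-BB and no stimulus. The fall with Itgav siRNA was 1.14-fold under TGF-β (-0.19 ± 0.0594, adjusted p = 0.011), 1.4-fold under PDGF-BB (-0.49 ± 0.0616, adjusted p = 6.1e-07) and 1.28-fold without stimulus (-0.36 ± 0.066, adjusted p = 8.9e-05). The first of these was lost without the second TGF-β scramble library (-0.16, adjusted p = 0.055) and without the first TGF-β Itgav siRNA library (-0.16, adjusted p = 0.056), within a range of 0.0098 to 0.056 over 13 alternatives.

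TGF-β raised Plaur 2.1-fold in Itgav siRNA cells (1.07 ± 0.064, adjusted p = 2.2e-12) and 1.87-fold in scramble cells (0.90 ± 0.0614, adjusted p = 3.7e-11). The ligand gene Plau fell in the same comparisons. PDGF-BB raised Plaur 1.36-fold in Itgav siRNA cells (0.44 ± 0.0658, adjusted p = 1.4e-05) and 1.48-fold in scramble cells (0.57 ± 0.0618, adjusted p = 2e-07). From low to high the groups ran Itgav siRNA, scramble, PDGF-BB with Itgav siRNA, PDGF-BB with scramble, TGF-β with Itgav siRNA and TGF-β with scramble. Only scramble and PDGF-BB with Itgav siRNA overlapped among these neighbours, and the means spanned 2.4-fold.

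Serpine2, the protease nexin-1 gene, was higher with Itgav siRNA in every condition and most so under PDGF-BB. Under TGF-β it was at 442, 423 and 435 CPM with Itgav siRNA, against 326, 307 and 323 CPM with scramble. Under PDGF-BB it was at 696, 706 and 673 CPM with Itgav siRNA, against 389, 386 and 388 CPM with scramble. Without stimulus it was at 489, 498 and 467 CPM with Itgav siRNA, against 344, 351 and 331 CPM with scramble. In each condition every siRNA library lay above every scramble library, a separation shared with 55.6% to 61.9% of all genes. Serpine2 rose with Itgav siRNA 1.36-fold under TGF-β (log2 fold change 0.445 ± 0.0378, adjusted p = 1.7e-09), 1.78-fold under PDGF-BB (0.835 ± 0.0376, adjusted p = 3.7e-14) and 1.42-fold without stimulus (0.50 ± 0.0376, adjusted p = 2e-10).

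Both stimuli also moved Serpine2. TGF-β lowered it 1.12-fold in Itgav siRNA cells (-0.16 ± 0.0375, adjusted p = 0.00086). In scramble cells TGF-β lowered it 1.07-fold (-0.10 ± 0.0378, adjusted p = 0.029), and that call held under 7 of 13 alternatives, with adjusted p from 0.024 to 0.16. It was lost without the first (-0.10, adjusted p = 0.067) or the second unstimulated scramble library (-0.079, adjusted p = 0.15), without the second TGF-β scramble library (-0.074, adjusted p = 0.16), without the filter, with DESeq2's size factors and in a fit of both groups alone. PDGF-BB raised Serpine2 1.43-fold in Itgav siRNA cells (0.51 ± 0.0374, adjusted p = 2.4e-10) and 1.13-fold in scramble cells (0.18 ± 0.0376, adjusted p = 0.00062). Its order was TGF-β with scramble, scramble, PDGF-BB with scramble, TGF-β with Itgav siRNA, Itgav siRNA and PDGF-BB with Itgav siRNA, with no overlap between neighbours and a span of 2.17-fold.

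Per kilobase, Serpine2 was the most abundant of the 5 messages in all 6 groups, at 144 to 313 CPM per kb as group means. Relative to the sum of both activators per kb, Serpine2 stood at 15.4 ± 0.545 with Itgav siRNA against 10.5 ± 0.965 with scramble under TGF-β, at 3.43 ± 0.0911 against 1.85 ± 0.0455 under PDGF-BB, and at 4.08 ± 0.0515 against 2.6 ± 0.0237 without stimulus (SD, n = 3). This ratio of inhibitor to activator message was highest in the TGF-β libraries, where both activators were low. The ratio is a quantity of mRNA and carries no measure of protein or protease activity.

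Serpinb2, the gene of plasminogen activator inhibitor 2, was near the limit of detection without PDGF-BB and clearly expressed with it. With PDGF-BB it was at 23.2, 24.6 and 25.2 CPM in Itgav siRNA cells and at 18.9, 21.2 and 22.0 CPM in scramble cells. Without stimulus it was at 1.72, 1.0 and 0.674 CPM in Itgav siRNA cells (32, 20 and 13 counts) and at 0.275, 0.457 and 0.581 CPM in scramble cells (6, 9 and 12 counts). With TGF-β it was at 0.4, 1.1 and 0.374 CPM in Itgav siRNA cells (7, 20 and 7 counts) and at 0.406, 0.269 and 0.174 CPM in scramble cells (7, 5 and 3 counts). The 6 PDGF-BB libraries stood apart from the other 12, a split that was not counted over all genes. Between PDGF-BB and unstimulated libraries, 48.2% of all tested genes did not overlap in Itgav siRNA cells and 44.1% in scramble cells. PDGF-BB raised Serpinb2 21.5-fold in Itgav siRNA cells (4.43 ± 0.208, adjusted p = 1.4e-13) and 47-fold in scramble cells (5.55 ± 0.244, adjusted p = 7.3e-14).

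Itgav siRNA raised Serpinb2 2.57-fold without stimulus (1.36 ± 0.386, adjusted p = 0.0051), on few counts. Without the first unstimulated siRNA library that value was 0.95 and no longer passed (adjusted p = 0.06, in a range of 0.00016 to 0.06 over 13 alternatives). Under TGF-β the siRNA value was 1.13 ± 0.51 (adjusted p = 0.074) with overlapping groups, and under PDGF-BB it was 0.23 ± 0.143 (adjusted p = 0.17), although there the lowest siRNA library was above the highest scramble library, a separation seen in 61.9% of all genes. The TGF-β value passed under 4 of 12 alternatives (adjusted p from 0.036 to 0.56). Among them were DESeq2 and the fits without the first (1.35, adjusted p = 0.047) or the third TGF-β Itgav siRNA library (1.40, adjusted p = 0.036). The TGF-β value was 0.44 without the second TGF-β Itgav siRNA library (adjusted p = 0.56). The PDGF-BB value passed under 1 of 13, the fit of both groups alone (adjusted p = 0.03, in a range of 0.03 to 0.37).

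TGF-β gave Serpinb2 values of -0.84 ± 0.369 in Itgav siRNA cells (adjusted p = 0.057) and -0.61 ± 0.539 in scramble cells (adjusted p = 0.37). The value in siRNA cells passed under 4 of 13 alternatives (adjusted p from 0.0032 to 0.38). These include DESeq2, leaving out the third unstimulated siRNA library (-1.11, adjusted p = 0.014) and leaving out the second TGF-β siRNA library (-1.53, adjusted p = 0.0032). The value was -0.43 without the first unstimulated siRNA library (adjusted p = 0.38). The groups without PDGF-BB overlapped with their neighbours in the order TGF-β with scramble, scramble, TGF-β with Itgav siRNA and Itgav siRNA. The span of the 6 means was 86.1-fold.

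In the PDGF-BB libraries the Serpinb2 counts were split between 2 annotated transcripts that start at 107511423 and 107511497 on chromosome 1. The transcript with the upstream start, which follows the promoter printed above, took 46.4%, 60.1% and 61.4% with Itgav siRNA and 44.9%, 57.1% and 51.0% with scramble, and both sets of libraries overlapped. The other took nearly all of the rest. Serpinb2 also overlaps Serpinb10 on the same strand, so reads in the shared part could have been assigned to either. Serpinb10 had 11 to 15.93 counts in the PDGF-BB libraries with Itgav siRNA and 1 to 3 with scramble, whereas Serpinb2 had 473 to 535 with Itgav siRNA and 375 to 475 with scramble.

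Counted over the 5 genes, the members called in each comparison stood beside a background in which large parts of the transcriptome moved. Itgav siRNA changed 4 of 5 members under TGF-β (2 higher, 2 lower, where 48.4% of all tested genes were called, 24.1% higher and 24.3% lower), 4 of 5 under PDGF-BB (2 higher, 2 lower, against 59.3%, 29.4% higher and 29.9% lower) and 5 of 5 without stimulus (3 higher, 2 lower, against 53.4%, 25.9% higher and 27.5% lower). TGF-β changed 4 of 5 in Itgav siRNA cells (1 higher, 3 lower, against 57.5%, 27.9% higher and 29.6% lower) and 4 of 5 in scramble cells (1 higher, 3 lower, against 48.3%, 23.4% higher and 24.8% lower). PDGF-BB changed 4 of 5 in Itgav siRNA cells, all higher, where 36.4% of all genes were called and 17.2% were called higher (19.2% lower). It changed 5 of 5 in scramble cells, all higher, where 36.1% were called and 16.9% were called higher (19.2% lower). With shares this large a count over 5 genes says little, and the sizes of the changes carry the description. The median log2 fold change of the members lay between -0.839 and 0.566 over these 7 comparisons, and that of all genes between -0.023 and 0.013. For TGF-β the members' median was the value of Serpinb2 (-0.839 in Itgav siRNA cells and -0.61 in scramble cells), which was not called there. A median of members that moved in both directions describes no shared shift. The effects of TGF-β, PDGF-BB and the siRNA in unstimulated cells share the scramble libraries, so they are not independent of each other.

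**Figure D3:**
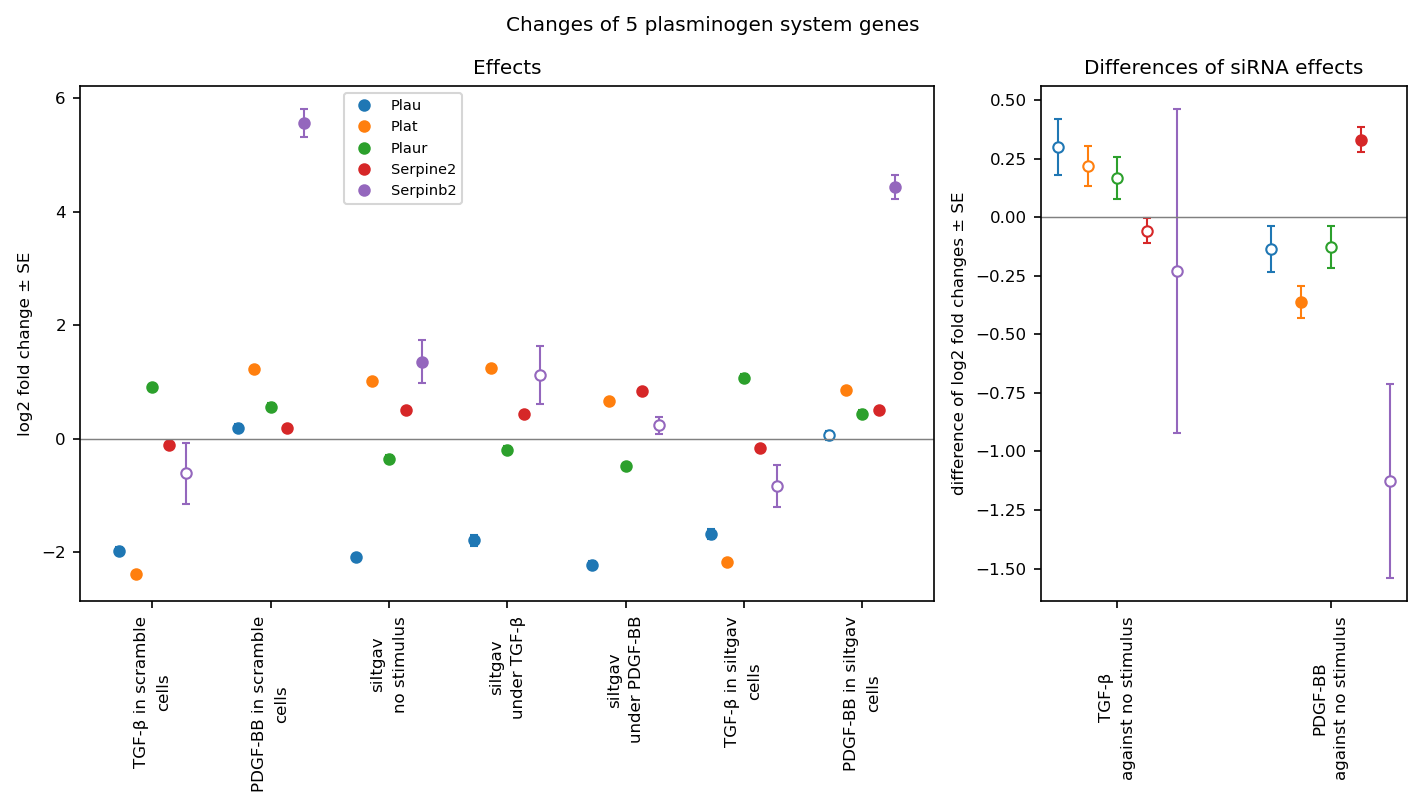
Left, log2 fold changes with SE of Plau, Plat, Plaur, Serpine2 and Serpinb2 in 7 comparisons; right, the difference of the siRNA effect under each stimulus from that without stimulus. Filled points passed adjusted p of 0.05 in edgeR's quasi-likelihood test and open points did not; Serpinb2 stands at 5.55 with PDGF-BB in scramble cells, and the 2 filled points on the right are Plat at -0.36 and Serpine2 at 0.33.

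Whether a stimulus altered the effect of Itgav siRNA was tested as an interaction. With PDGF-BB the siRNA effect on Plat was smaller by 0.36 on the log2 scale than without stimulus (-0.36 ± 0.0669, adjusted p = 0.00067), and that on Serpine2 was larger (0.33 ± 0.053, adjusted p = 0.00015). These were 2 of 5 members by edgeR's quasi-likelihood test, while 18.8% of all genes were called in this interaction, 9.51% higher and 9.32% lower. DESeq2 called 3 of 5 members, and 2934 of all genes against 2981 by edgeR. Itgav itself gave a difference of 0.58 ± 0.124 (adjusted p = 0.0025), so the siRNA lowered it less with PDGF-BB than without stimulus. The part of that in the differences of the members was not tested. The differences for Plau (-0.13 ± 0.0975, adjusted p = 0.37) and Plaur (-0.13 ± 0.0903, adjusted p = 0.36) did not pass. That for Serpinb2 (-1.13 ± 0.414, adjusted p = 0.062) passed under 4 of 19 alternatives, DESeq2 among them, with adjusted p from 0.013 to 0.28. Its values ran from -1.39 without the third unstimulated siRNA library (adjusted p = 0.025) to -0.72 without the first (adjusted p = 0.28).

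With TGF-β, 0 of 5 differences were called by edgeR's quasi-likelihood test (23.2% of all genes were, 12.2% higher and 11% lower) and 0 by DESeq2. An unadjusted p under 0.05 was found for 5428 of all 15832 tested genes and for 2 of the 5 members. These were Plau (0.30 ± 0.119, adjusted p = 0.076) and Plat (0.22 ± 0.0837, adjusted p = 0.064). Each passed with certain libraries left out: Plau without the second TGF-β scramble library (0.37, adjusted p = 0.033) or the third TGF-β siRNA library (0.38, adjusted p = 0.042), and Plat without the first TGF-β siRNA library (0.26, adjusted p = 0.037). Plaur (0.17 ± 0.0888, adjusted p = 0.19), Serpine2 (-0.06 ± 0.0532, adjusted p = 0.49) and Serpinb2 (-0.23 ± 0.69, adjusted p = 0.86) did not pass.

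The genes whose log2 CPM followed each member most closely were looked up among 10525 genes that averaged 5 CPM or more. Over the 18 libraries, which are 6 groups of 3 and share the siRNA and the stimuli, Pearson's r with Plau was 0.986 for Adh5, 0.985 for Sesn2 and 0.985 for Ccnd2. For Plat those reported are Nadk2 (0.994) and Frmd6 (0.993), and for Plaur they were Snd1 (0.978), Xirp1 (0.975) and Psmd1 (0.974). For Serpine2 they were Srxn1 (0.983), Ctsb (0.981) and Asph (0.977), and for Serpinb2 they were Errfi1 (0.98), Spred1 (0.973) and Raph1 (0.972). Ctsb encodes cathepsin B, a protease that can activate pro-urokinase. Such values chiefly describe the pattern over 6 groups and are given without a test.

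Other genes of the plasminogen system were read from a list of 36, of which 26 passed the filter. Plg, the plasminogen gene itself, had 0 counts in every library, which allows up to 0.139 to 0.169 CPM by library, so the substrate of the activators was not detected as a transcript at this depth. Vtn, Serpinf2, Serpina5, A2m, Spint1, Cpb2, Hgfac, F12 and Klkb1 were also too low to test. Itgav siRNA raised 9 and lowered 7 of the 26 under TGF-β (median log2 fold change 0.029), where 48.4% of all genes were called. It raised 14 and lowered 5 under PDGF-BB (0.334), where 59.3% were called, and raised 14 and lowered 6 without stimulus (0.266), where 53.4% were called.

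Among the surface receptors, Mrc2, which encodes an endocytic collagen receptor that associates with the urokinase receptor, was at 182 ± 7.4 CPM with Itgav siRNA against 85.6 ± 3.59 CPM with scramble (SD, n = 3). It rose in all 3 conditions, by 1.17 under TGF-β, 1.34 under PDGF-BB and 1.09 without stimulus on the log2 scale. Anxa2, whose product annexin A2 binds plasminogen and tissue-type activator at the cell surface, was at 719 ± 13.7 CPM with Itgav siRNA against 1150 ± 11.9 CPM with scramble. It fell by 0.81 under TGF-β, 0.80 under PDGF-BB and 0.68 without stimulus. Vldlr, an endocytic receptor for protease and serpin complexes, rose with Itgav siRNA without stimulus (1.10 ± 0.0498, adjusted p = 5.2e-14), at 160 ± 3.96 CPM against 75.0 ± 2.07 CPM. Under TGF-β, PDGF-BB and no stimulus, Vldlr rose by 0.265, 0.90 and 1.10 with the siRNA. F2r, a thrombin receptor gene, rose by 1.40, 0.67 and 0.93, and Ctsb by 0.38, 0.68 and 0.27, in the same order.

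TGF-β raised 9 and lowered 13 of the 26 in Itgav siRNA cells (median -0.28, with 57.5% of all genes called) and raised 8 and lowered 12 in scramble cells (-0.212, with 48.3% called). Serpini1, the gene of neuroserpin, an inhibitor of tissue-type activator, was at 157 ± 4.66 CPM with TGF-β against 19.5 ± 0.985 CPM without in Itgav siRNA cells, and at 54.5 ± 2.79 against 12.1 ± 1.35 CPM in scramble cells. It rose by 3.0 in Itgav siRNA cells and by 2.18 in scramble cells on the log2 scale. Serping1, the C1 inhibitor gene, fell by 2.53 in Itgav siRNA cells and 1.77 in scramble cells, and Vldlr fell by 2.17 in Itgav siRNA cells and 1.34 in scramble cells.

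PDGF-BB raised 10 and lowered 10 of the 26 in Itgav siRNA cells (median 0.078, with 36.4% of all genes called) and raised 10 and lowered 7 in scramble cells (0.048, with 36.1% called). Vldlr fell by 1.14 in Itgav siRNA cells and 0.94 in scramble cells. Serpinb9, an inhibitor of granzyme B, fell by 1.18 in Itgav siRNA cells and 0.97 in scramble cells. Mrc2 rose by 0.90 in Itgav siRNA cells and 0.65 in scramble cells, and Serping1 fell by 1.155 in Itgav siRNA cells and 1.33 in scramble cells.

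Interactions were called for 12 of the 26 listed genes with TGF-β (4 higher, 8 lower, with 23.2% of all genes called) and for 11 with PDGF-BB (7 higher, 4 lower, with 18.8% called). With TGF-β the siRNA effect was lower than without stimulus for Thbd, the thrombomodulin gene (-0.96, adjusted p = 4e-10), for Vldlr (-0.83) and for Serping1 (-0.76). With PDGF-BB it was higher for Ctsb (0.41, adjusted p = 1.7e-05) and for F3, the tissue factor gene (0.92, adjusted p = 4e-05), and lower for Thbd (-0.40, adjusted p = 0.00012).

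**Figure D4:**
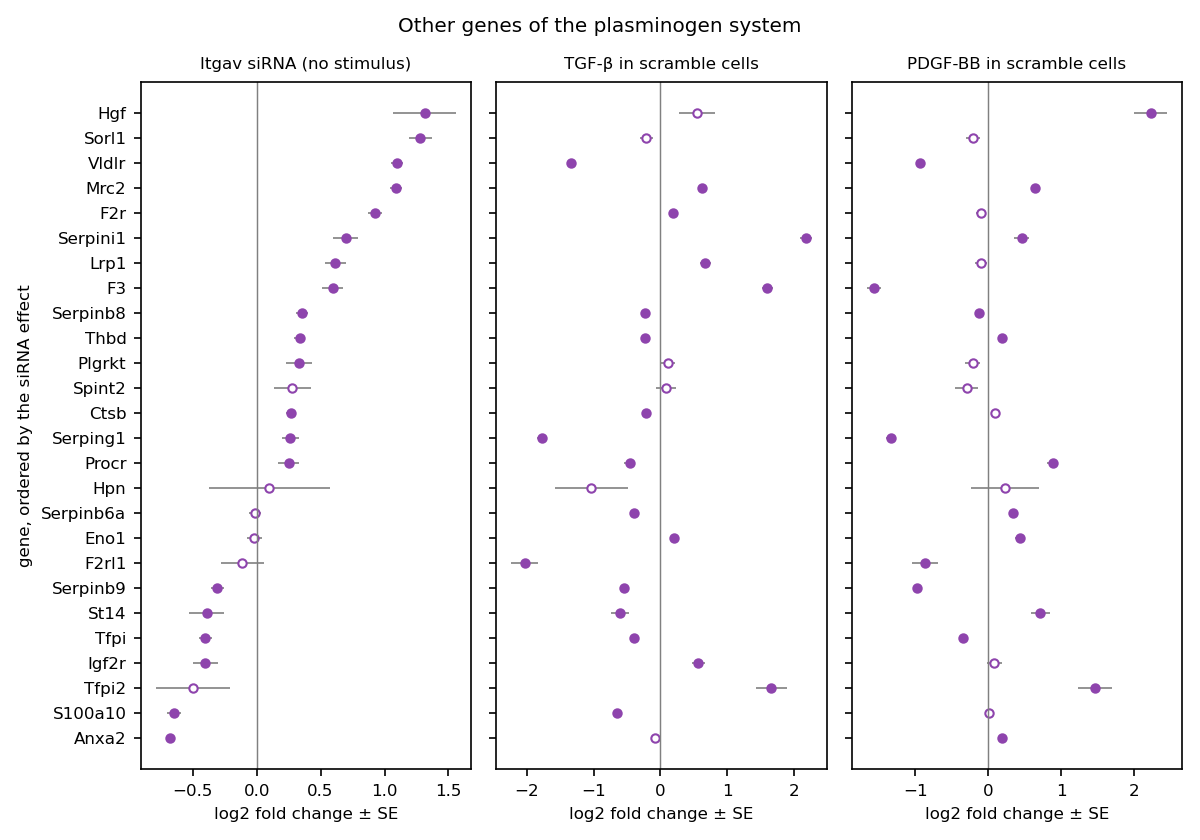
Log2 fold changes with SE of the 26 tested genes of the plasminogen list with Itgav siRNA without stimulus, with TGF-β in scramble cells and with PDGF-BB in scramble cells, ordered by the first. Filled points passed adjusted p of 0.05 and open points did not; Mrc2 and Vldlr stand near 1.1 and Anxa2 at -0.68 in the first panel, and Serpini1 stands at 2.18 and Serping1 at -1.77 in the second.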

How the data were processed

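The gene and transcript matrices deposited by the authors hold estimated counts per gene and transcript, not normalized, and 76.2% of gene values above 0 are whole. HISAT2 2.2.1, StringTie 2.1.6 and build mm10 are named in the submitters' processing notes. The labels do not state strand handling or the annotation release. Counts were rounded, and genes under edgeR's filterByExpr minimum count of 10 were dropped, which left 15832 genes with at least 99.91% of each library's counts. All 18 libraries entered 1 fit with a mean per group (edgeR 4.0.16, quasi-likelihood test, TMM factors of 0.925 to 1.07, biological coefficient of variation 6.01%, 12 residual degrees of freedom), and p-values were adjusted by Benjamini-Hochberg over all tested genes and called at 0.05. SE is the log2 fold change divided by the square root of F. CPM uses TMM-scaled totals. CPM per kb divides by the length of the transcript with most counts (GENCODE 21, GRCm38). No 2 replicates agreed within sampling noise: chi-square per degree of freedom was at least 2.228. The code was tested on simulated data.

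The members, the marker lists and the list of other plasminogen genes were chosen with earlier results of these data known. Named are the 5 members, Itgav, the 3 genes most correlated with each member (2 for Plat, where the other one is not reported here), and in each comparison up to 3 called genes of the plasminogen list with a mean of at least 5 CPM and the smallest p. Serpinb10, untested marker genes, and Acta2, Myh11, Cd34, Pdgfra and Scara5, chosen after their values were seen, are named beside the result they touch. Alternatives were DESeq2 1.42.0, its size factors, no filter, a stricter filter, a replicate block, the compared groups alone and each library left out. Promoter sequences are RefSeq's for GRCm38.p6, and motifs were searched on both strands.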

Additional observations from a re-analysis of the deposited data

Results flagged for a closer look

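The effect of Itgav siRNA differed between PDGF-BB and no stimulus for 2 of the 5 genes by the interaction test. For Serpine2 the log2 fold change was 0.331 larger under PDGF-BB (0.835) than without stimulus (0.503). For Plat the difference was -0.361, with log2 fold changes of 0.66 under PDGF-BB and 1.02 without stimulus. Both genes rose with the siRNA in either condition, so the sizes differed and the directions did not. The effect on Itgav itself also differed, with log2 fold changes of -3.81 under PDGF-BB and -4.39 without stimulus.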

How the results depend on the processing

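Of the alternatives for the members' log2 fold changes, 613 kept direction and side of the threshold, 16 gained a call, 10 lost one and 4 reversed. All 4 reversals were of the Serpinb2 interaction of Itgav siRNA with TGF-β (-0.229, not called), which was 0.027 to 0.177 with 1 of 4 libraries left out: 0.027 without scramble replicate 1, 0.177 without Itgav siRNA replicate 1, 0.091 without TGF-β scramble replicate 1 and 0.033 without TGF-β Itgav siRNA replicate 3. Over its 19 alternatives it ran from -0.923 to 0.177 (adjusted p 0.36 to 1.0). The number of members called in that interaction, 0, ranged from 0 to 1 with a library left out. No other count of members and none of the counts over all genes moved by over 1.5 times. The main fit did not pair libraries by replicate number. Same-numbered libraries had correlations of deviations of -0.044 to 0.097. The libraries that correlated best with their own number ranged from 0 of 6 to 4 of 6, the latter for the siRNA effect under PDGF-BB. These values do not exclude a pairing. The replicate block moved the counts of called genes by 1.01 to 1.12 times (3349 with it against 2981 without it for the PDGF-BB interaction) and changed no member's call. Depth limits Serpinb2, which had 3 to 32 counts in libraries without PDGF-BB. The cause of the lost and gained calls was not tested.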
